A study of Mus musculus with 6 samples.

Results

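The genes of ribosome biogenesis and of RNA polymerase I (Pol I) were described as a list of 40 symbols, chosen by name for their part in making ribosomes. All 40 were found among the 23282 rows of each library. They were Rn45s, which stands for the ribosomal RNA (rRNA) precursor, 8 genes of Pol I transcription, 8 genes of small nucleolar ribonucleoproteins (snoRNPs), 15 nucleolar and large subunit (60S) factors and 8 small subunit (40S) factors. All 40 were among the 11279 genes whose mean log2 value over the 6 libraries was at least 1 and which were therefore tested.

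CD4 T cells were taken from the spleen and lymph nodes of C57BL/6 mice and compared between 3 WT samples (Prkaa1fl/flCD4Cre-neg) and 3 AMPK KO samples (Prkaa1 fl/fl with CD4Cre). Prkaa1 encodes the α1 catalytic subunit of AMPK, an energy-sensing kinase, and CD4Cre acts in any cell that expresses or has expressed CD4, T cells that later become CD8 cells included. WT and AMPK KO mice thus shared the floxed allele, and both sets of cells were rested for 1 h and stimulated with anti-CD3/CD28 antibody at 2 µg/mL. The labels give a stimulation of 24 h, whereas the methods text gives a shorter time, and female mice as the default. The paper calls the samples biologically independent, and the labels do not say whether those of a group came from separate animals, so p values measure the spread between these samples.

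Ribosomes are built in the nucleolus, where Pol I transcribes the repeated rRNA genes into one long precursor. SnoRNPs then modify this RNA, and nucleolar factors cleave and fold it into the small and the large subunit. T cells enlarge their nucleoli and make more ribosomes after activation, and AMPK is known to phosphorylate the Pol I initiation factor RRN3 when energy is low, a change in a protein that RNA levels do not report.

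The libraries held 9574781 to 11185380 reads, and the genes of the list other than Rn45s had 69 to 21161 reads per library. Prkaa1 itself read 4.64, 5.24 and 4.86 in WT and 4.08, 4.72 and 4.67 in AMPK KO on the deposited log2 scale, a difference of -0.43 (SE 0.25, adjusted p = 0.357 with limma), and the groups overlapped. These 3' tags need not lie in the deleted part of the gene. Sex-linked transcripts differed with genotype. The log2 fold change was 6.13 for Xist and -1.36 for the Y-linked Ddx3y. A part of sex in the differences between the groups cannot be told apart from that of genotype. Markers of other cells moved with genotype as well, and none of the listed markers was at 0 in all libraries. The summed linear level of 12 T cell markers was 3028 to 3266 in WT and 2302 to 2720 in AMPK KO, and 4 of the 12 tested fell (Tcf7, Cd3g, Cd3e and Cd28). The 12 myeloid markers summed to 610 to 684 in WT and 918 to 1610 in AMPK KO, and 6 of the 12 rose, among them Cd14 and C1qa. Cd4, which defines the labelled cells, read 6.72, 6.83 and 6.53 in WT and 6.55, 6.31 and 6.14 in AMPK KO. Plasma cell markers summed to 197 to 247 against 511 to 545, NK cell markers to 118 to 155 against 179 to 194, CD8 T cell markers to 231 to 305 against 321 to 376, and neutrophil markers to 789 to 907 against 517 to 760. B cell markers (248 to 270 in WT, 236 to 287 in AMPK KO) and erythroid markers (3992 to 4599 and 2891 to 5574) overlapped. The part of these differences in the results on ribosome genes was not tested, and in bulk samples fewer cells of a type and less RNA per cell cannot be told apart.

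Rn45s, the template entry for the rRNA precursor with the mature rRNAs inside it, was lower in every AMPK KO sample, while the summed genes of ribosome biogenesis were not. Rn45s read 17.79, 17.68 and 18.04 in WT and 16.62, 16.34 and 16.57 in AMPK KO (deposited log2 values). The lowest WT sample thus lay above the highest AMPK KO sample. The log2 fold change was -1.33 (SE 0.40), a 2.51-fold lower level, with an adjusted p of 0.0642 and an unadjusted p of 0.00464 from limma, so the difference did not pass the threshold of 0.05. By exact permutation of the 6 samples (two-sided) p was 0.1, the smallest that 3 samples against 3 allow.

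In reads, Rn45s took 21.5%, 20.7% and 24.9% of all reads in WT and 10.8%, 8.48% and 10.4% in AMPK KO. For each 100 reads on other genes there were 27.4, 26.1 and 33.1 Rn45s reads in WT (28.9 ± 3.72, SD, n = 3) and 12.1, 9.26 and 11.6 in AMPK KO (11.0 ± 1.51, SD, n = 3), a ratio of 2.63. The library kit primes on poly(A) tails, which rRNA does not normally carry, and how the Rn45s reads arose was not tested. Scaled to the reads outside Rn45s, the Rn45s difference was -1.40 with an adjusted p of 0.0241 (limma), so the call depended on the scaling. Without AMPK KO 2 the deposited values gave -1.24 with an adjusted p of 2.0e-04, and without any other library they gave no call (adjusted p = 0.0885 to 0.242).

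The other 39 genes, summed, took 0.745%, 0.770% and 0.720% of the reads outside Rn45s in WT (0.745% ± 0.0249, SD, n = 3) and 0.743%, 0.671% and 0.799% in AMPK KO (0.738% ± 0.0644, SD, n = 3). The groups overlapped. As a share of all reads, Rn45s included, the same genes stood at 0.579% ± 0.0352 in WT and 0.664% ± 0.0512 in AMPK KO (SD, n = 3), with no overlap, in libraries where fewer of the reads were Rn45s. Each read on these genes was accompanied by 36.8, 33.9 and 45.9 Rn45s reads in WT and by 16.3, 13.8 and 14.5 in AMPK KO. The sums weigh abundant genes most. Of the 56675 reads on the 39 genes in WT 1, Ncl had 13227, Ddx21 7064 and Npm1 6545.

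**Figure D1:**
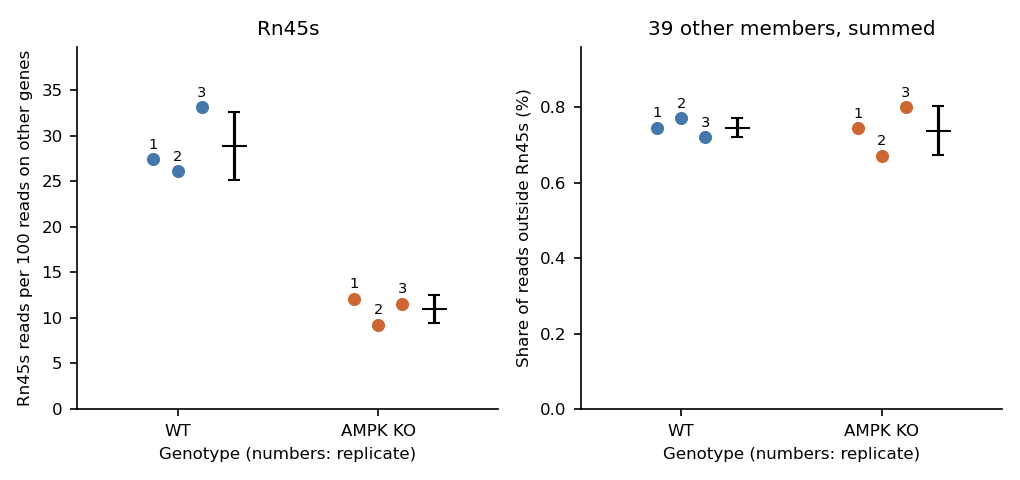
Rn45s reads per 100 reads on other genes (left axis) and the summed share, in percent, of the other 39 genes among reads outside Rn45s (right axis), with a numbered point per library and bars for mean ± SD (n = 3). The WT libraries lie at 26.1 to 33.1 and the AMPK KO libraries at 9.26 to 12.1 on the left, while on the right the AMPK KO libraries (0.671% to 0.799%) span the WT libraries.

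Of the 40 genes, 2 passed an adjusted p of 0.05 (5%), against 5.65% of all genes tested. Taf1d rose and Polr1a fell, where 2.54% of all genes tested were called higher and 3.1% lower. An unadjusted p under 0.05 was reached by 8 of the 40 (20%) and by 21.3% of all genes tested. In 9 of the 40 the 3 AMPK KO values all lay on one side of the 3 WT values (22.5%, against 25.6% of all genes tested). Of these, 5 were higher in AMPK KO (Taf1d, Nop56, Nop58, Npm1 and Nop16, background 11.6%), and Polr1a, Rn45s, Wdr12 and Ddx21 were lower (background 14%). These shares of the list were near those of all genes.

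The median log2 fold change of the 39 genes without Rn45s was 0.02, as was that of all genes tested, and 24 of the 39 lay within 0.2 of 0. The share within 0.2 of 0 was not counted over all genes. The mean was higher in AMPK KO for 22 of the 39 with the deposited scaling and for 15 of the 39 when scaled to reads outside Rn45s, where the medians of the 39 and of all genes were both -0.05. With voom on the recovered reads, scaled to all reads, it was higher for 31 of the 39. The medians there were 0.165 for the 39 and 0.164 for all genes. When scaled to reads outside Rn45s, more genes were called lower than higher. That scaling gave 231 genes higher and 487 lower, where the deposited values gave 287 and 350. By role, the median was 0.10 for the 8 Pol I transcription genes, 0.12 for the 8 snoRNP genes, -0.01 for the 15 nucleolar and 60S factors and -0.02 for the 8 small subunit factors. In the same order the medians were 0.03, 0.05, -0.08 and -0.09 when scaled to reads outside Rn45s. With voom they were 0.25, 0.27, 0.13 and 0.12.

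**Figure D2:**
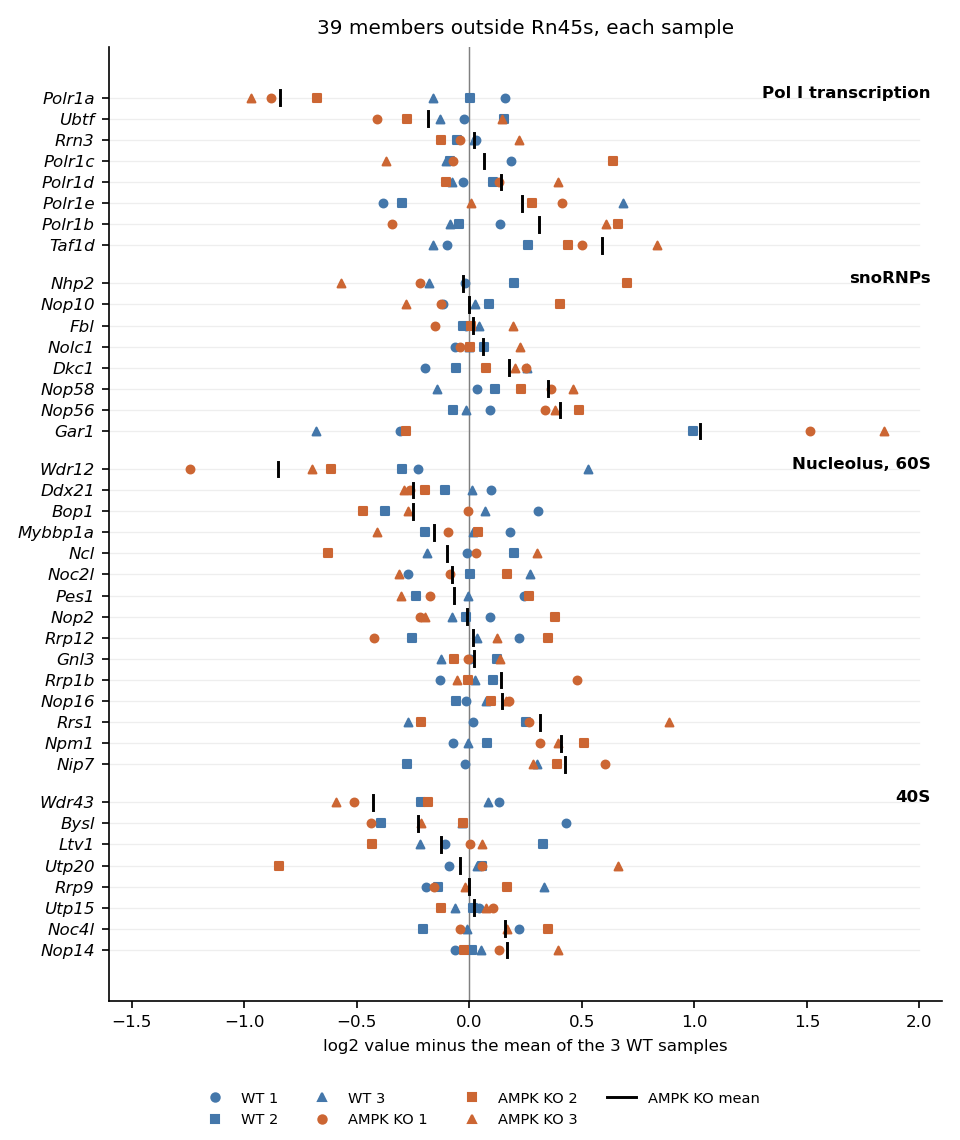
Deposited log2 value of each of the 39 genes outside Rn45s in each library, minus the mean of the 3 WT libraries, grouped by role, with circles, squares and triangles for replicates 1, 2 and 3 and a black bar for the AMPK KO mean. Most genes straddle 0, Polr1a and Wdr12 lie to the left of all their WT points, and Gar1 shows the widest spread of any gene in the plot.

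Of the 8 genes of Pol I transcription, Polr1a fell and Taf1d rose, and the other 6 overlapped between the groups. Polr1a encodes the largest, catalytic subunit of Pol I. It read 5.61, 5.46 and 5.29 in WT and 4.57, 4.77 and 4.48 in AMPK KO (deposited log2 values). All 3 AMPK KO samples lay below all 3 WT samples. Polr1a fell by 0.84 on the log2 scale (log2 fold change -0.84, SE 0.20, adjusted p = 0.0276, limma), a 1.79-fold lower level that rested on 254 to 441 reads per library.

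Taf1d encodes a subunit of the selectivity factor that places Pol I at the rRNA gene promoter. It read 7.87, 8.23 and 7.81 in WT and 8.47, 8.41 and 8.81 in AMPK KO. The groups did not overlap, though WT 2 lay close to AMPK KO 2. Taf1d rose by 0.59 on the log2 scale (SE 0.16, adjusted p = 0.0420, limma), a 1.51-fold higher level on 1976 to 5318 reads. Scaled to reads outside Rn45s, Polr1a remained past the threshold (-0.92, adjusted p = 0.0172) and Taf1d did not (0.52, adjusted p = 0.0759). Voom on the recovered reads also changed the scaling, to all reads with Rn45s included and without the TMM step of the deposited values. It gave the reverse, with Polr1a at -0.73 (adjusted p = 0.0630) and Taf1d at 0.74 (adjusted p = 0.0248).

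Both calls also depended on single libraries. Polr1a lost its call when any library other than AMPK KO 2 was left out (adjusted p = 0.0507 to 0.144), with log2 fold changes of -0.93 to -0.76 over all 6 omissions. Taf1d lost its call without WT 1, WT 3, AMPK KO 1 or AMPK KO 3 (adjusted p = 0.115 to 0.212), with log2 fold changes of 0.47 to 0.72 over the 6 omissions. The difference between the genes within a library, which a scaling of whole libraries leaves nearly unmoved, was 2.26, 2.78 and 2.52 (Taf1d minus Polr1a, log2) in WT and 3.90, 3.64 and 4.33 in AMPK KO. Its mean was 2.52 ± 0.26 in WT and 3.95 ± 0.35 in AMPK KO (SD, n = 3). This pair was chosen after its values were seen.

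Polr1a lies at chr6:71909053-71984935 on the plus strand and Taf1d at chr9:15306214-15316991 on the plus strand (GRCm38, the build also called mm10, GENCODE vM21). Their promoters, from 250 bases before to 50 bases after the RefSeq start (GRCm38.p6), are shown because these were the genes that passed the test. Each is printed 5′ to 3′ on the plus strand, at chr6:71908803-71909102 for Polr1a and at chr9:15305964-15306263 for Taf1d. The motifs searched on both strands were CACGTG (the E-box bound by Myc and Max, its own reverse complement), CCGGAA (the core bound by ETS factors) and TATAAA (the TATA box), and no match was found in either window.
Polr1a: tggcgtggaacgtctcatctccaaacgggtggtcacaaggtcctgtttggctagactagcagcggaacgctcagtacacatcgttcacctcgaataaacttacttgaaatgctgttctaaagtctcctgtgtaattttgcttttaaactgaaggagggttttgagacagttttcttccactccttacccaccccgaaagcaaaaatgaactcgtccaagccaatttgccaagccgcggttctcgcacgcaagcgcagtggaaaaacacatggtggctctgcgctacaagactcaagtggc
Taf1d: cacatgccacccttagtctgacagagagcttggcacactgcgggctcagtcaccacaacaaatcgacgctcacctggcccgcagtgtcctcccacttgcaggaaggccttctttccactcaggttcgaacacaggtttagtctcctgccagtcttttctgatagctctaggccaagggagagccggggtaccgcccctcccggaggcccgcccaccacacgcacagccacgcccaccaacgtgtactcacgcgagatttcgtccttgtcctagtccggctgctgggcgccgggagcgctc

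The other Pol I genes did not pass the test. Rrn3 (TIF-IA), the initiation factor that AMPK phosphorylates, read 5.68, 5.60 and 5.67 in WT and 5.61, 5.53 and 5.87 in AMPK KO. The AMPK KO values spanned the WT values, and the log2 fold change was 0.02 (SE 0.18, adjusted p = 0.968, limma). Ubtf, the factor that keeps rRNA genes open and recruits the promoter complex, had a log2 fold change of -0.18 (adjusted p = 0.626).

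Polr1b, the second largest Pol I subunit, had a log2 fold change of 0.31 (adjusted p = 0.643), on the other side of 0 from Polr1a. It read 3.41, 3.23 and 3.19 in WT and 2.94, 3.94 and 3.89 in AMPK KO, so AMPK KO 1 lay below all WT samples and the other two above them. Polr1c and Polr1d, which Pol I shares with Pol III, had log2 fold changes of 0.06 and 0.14, and the Pol I subunit Polr1e had 0.23, with 70 to 165 reads. In all of these the groups overlapped.

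Rrn3 lies at chr16:13780708-13814839 on the plus strand, and its promoter at chr16:13780449-13780748 (plus strand, GRCm38.p6) is shown for its place between AMPK and Pol I. The capitals mark CACGTG at bases -215 and -48 from the start, and CCGGAA, read on the opposite strand as TTCCGG, at bases -4 and 19.
Rrn3: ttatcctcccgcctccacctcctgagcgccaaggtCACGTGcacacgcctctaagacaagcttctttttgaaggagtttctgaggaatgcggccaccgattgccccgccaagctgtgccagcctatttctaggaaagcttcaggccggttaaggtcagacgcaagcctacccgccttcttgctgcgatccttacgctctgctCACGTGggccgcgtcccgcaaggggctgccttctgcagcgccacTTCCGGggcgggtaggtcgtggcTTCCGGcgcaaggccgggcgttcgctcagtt

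RefSeq promoters were matched for 34 of the 40 genes. Rn45s, Fbl, Npm1, Bop1, Rrs1 and Rrp12 had no entry in the promoter table used here. CACGTG was found in 7 of the 34 (20.6%; Ltv1, Mybbp1a, Nop2, Pes1, Rrn3, Utp20 and Wdr43), against 8.09% of 27025 genes with promoter windows of the same length. A gene counted once if any of its windows held the letters, and Ubtf, Wdr12, Rrp1b and Noc2l have more than 1 window. CCGGAA was found in 14 of the 34 (41.2%), against 16.7%, and TATAAA in 2 (5.88%; Dkc1 and Pes1), against 15.7%. The 27025 genes were not limited to those tested here, while all of the 34 were tested, and a comparison with tested genes only was not made. A match describes these letters and not a bound site. None of the 7 genes with CACGTG passed the test.

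None of the 8 snoRNP genes passed the test in limma, with 2 at an unadjusted p under 0.05, while voom called Nop56. Nop56 and Nop58 are core proteins of the box C/D particles, which guide methylation of rRNA. Nop56 read 7.92, 7.76 and 7.82 in WT and 8.17, 8.32 and 8.21 in AMPK KO. Nop58, its partner in the same particle, read 8.29, 8.37 and 8.11 in WT and 8.62, 8.48 and 8.71 in AMPK KO. For both genes every AMPK KO sample lay above every WT sample, with differences of 0.40 (SE 0.13, adjusted p = 0.0928) for Nop56 and 0.35 (SE 0.14, adjusted p = 0.155) for Nop58, neither past the threshold in limma. Fbl, the methyltransferase of that particle, had a log2 fold change of 0.02 and overlapping groups.

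The box H/ACA particles guide pseudouridylation and hold Dkc1 (the pseudouridine synthase), Gar1, Nop10 and Nhp2. Gar1 had the largest positive difference of the 40 genes and the widest spread. It read 3.51, 4.81 and 3.14 in WT and 5.34, 3.54 and 5.66 in AMPK KO. WT 2 and AMPK KO 2 each lay with the other group, and the log2 fold change of 1.02 (SE 0.49, adjusted p = 0.246) rested on 69 to 591 reads. Without AMPK KO 2 it was 1.68 and passed the threshold. Dkc1 had 0.18, Nop10 -0.001 and Nhp2 -0.03, and Nolc1, a nucleolar chaperone of snoRNPs, had 0.06.

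Of the nucleolar and 60S factors, none of the 15 passed the test, with 2 at an unadjusted p under 0.05, while voom called Npm1. Npm1, the abundant nucleolar chaperone nucleophosmin, read 9.47, 9.62 and 9.54 in WT and 9.86, 10.06 and 9.94 in AMPK KO. All AMPK KO samples lay above all WT samples (log2 fold change 0.41, SE 0.13, adjusted p = 0.0913), and reads of its processed pseudogenes may be divided differently by the counting. Ncl, nucleolin, with the most reads of the 39 genes in every library except AMPK KO 2, read 10.49, 10.70 and 10.31 in WT and 10.53, 9.87 and 10.80 in AMPK KO. AMPK KO 2 and AMPK KO 3 lay on opposite sides of the WT samples, and the log2 fold change was -0.10 (adjusted p = 0.822).

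Wdr12 belongs to the complex with Pes1 and Bop1 that processes the 60S precursor. It read 4.91, 4.83 and 5.66 in WT and 3.89, 4.52 and 4.43 in AMPK KO. Every AMPK KO sample lay below every WT sample, and the log2 fold change of -0.85 (SE 0.27, adjusted p = 0.0793) was as large as that of Polr1a without passing the test. Its partners overlapped between the groups, with -0.07 for Pes1 and -0.25 for Bop1.

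Ddx21, a nucleolar RNA helicase, read 9.58, 9.38 and 9.50 in WT and 9.23, 9.29 and 9.20 in AMPK KO. The groups did not overlap, and the log2 fold change was -0.25 (adjusted p = 0.294). Nop16 also stood apart, higher by 0.15 (adjusted p = 0.701) with WT values of 5.12, 5.08 and 5.21 and AMPK KO values of 5.31, 5.23 and 5.30. Its difference was smaller than its SE of 0.19.

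The remaining 60S factors overlapped between groups. Nip7 had 0.42 (adjusted p = 0.295) and Rrs1 0.31, the rRNA methyltransferase Nop2 -0.01, the nucleolar GTPase Gnl3 0.02, Rrp1b 0.14, Rrp12 0.02, Mybbp1a -0.16 and Noc2l -0.08 as log2 fold changes.

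Of the 8 small subunit factors none passed the test in limma or voom, 1 had an unadjusted p under 0.05, and none had groups that stood apart. Wdr43, a subunit of the processome that starts 40S maturation, read 9.19, 8.84 and 9.15 in WT and 8.55, 8.88 and 8.47 in AMPK KO. Only AMPK KO 2, which lay above WT 2, broke the order, and the log2 fold change was -0.43 (SE 0.15, adjusted p = 0.117). Without AMPK KO 2 it was -0.55 and passed the threshold. Utp20, another processome protein, read 4.20, 4.34 and 4.32 in WT and 4.35, 3.44 and 4.95 in AMPK KO, the same split of AMPK KO 2 and AMPK KO 3 around WT as in Ncl. The log2 fold changes of the others were 0.17 for Nop14, -0.002 for Rrp9, 0.02 for Utp15, 0.16 for Noc4l, -0.23 for Bysl and -0.13 for Ltv1.

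Wdr43 lies at chr17:71615895-71659031 on the plus strand. Its promoter at chr17:71615965-71616264 (plus strand, GRCm38.p6) is shown because it holds CACGTG, in capitals, at base 17 after the start, and because Wdr43 had the lowest log2 fold change of the 8 small subunit factors described here.
Wdr43: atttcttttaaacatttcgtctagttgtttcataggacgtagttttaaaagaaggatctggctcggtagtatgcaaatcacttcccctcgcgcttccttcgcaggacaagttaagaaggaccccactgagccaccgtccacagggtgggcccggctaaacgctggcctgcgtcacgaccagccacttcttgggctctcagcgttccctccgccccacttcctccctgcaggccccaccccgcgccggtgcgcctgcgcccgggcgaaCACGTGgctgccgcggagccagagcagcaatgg

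**Figure D3:**
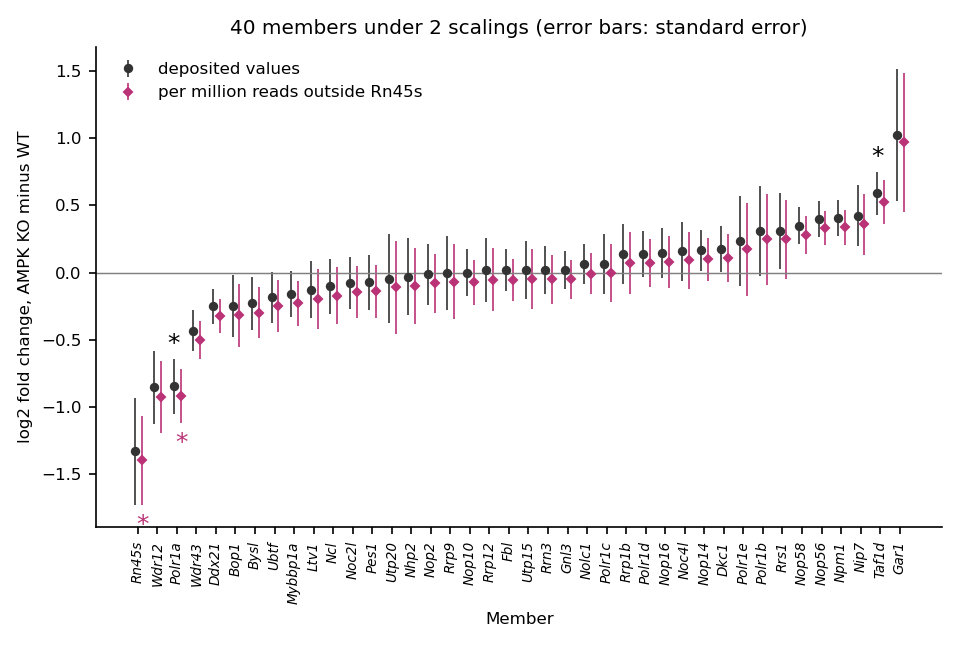
Log2 fold change (AMPK KO minus WT) of all 40 genes, ordered along the horizontal axis, from the deposited values (dark circles) and from values scaled to the reads outside Rn45s (purple diamonds), with bars for the standard error and asterisks for an adjusted p under 0.05 (limma). Polr1a is marked under both scalings, Taf1d only with the deposited values and Rn45s only outside Rn45s, where its difference was -1.40.

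AMPK KO 2 was the library farthest from its group mean in 20 of the 39 genes, against 8 for AMPK KO 1 and 11 for AMPK KO 3, while the WT libraries were farthest in 12, 15 and 12. These counts were not made over all genes tested, so they are not shown to be particular to this list. The SD was larger in AMPK KO for 22 of the 39 genes, and for 51.8% of all genes tested. Without AMPK KO 2, 8 of the 40 genes passed the threshold (Polr1a, Taf1d, Rn45s, Nop58, Gar1, Npm1, Wdr12 and Wdr43), where 11.0% of all genes did. AMPK KO 2 also held the highest sum of myeloid markers (1610) and the lowest share of Rn45s reads (8.48%), and the part of these in its distance from the other libraries was not tested.

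For 9 of the 40 genes a gene of the opposite strand covers the 3' end, the place that these 3' libraries sample, and whether the counting used strand is not given in the sources used here. Bysl, a 40S factor at chr17:47599331-47611492 on the minus strand, shares 361 bases with Ccnd3, which encodes cyclin D3. The deposited log2 values of Bysl exceeded those of Ccnd3 by 0.04, 0.18 and 0.05 in WT and by 0.19, 0.18 and 0.13 in AMPK KO. The SD of that difference over the 6 libraries was 0.0675, smaller than the SD of Bysl alone (0.317) or of Ccnd3 alone (0.372).

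Noc2l shares 651 bases with Samd11, and its excess over Samd11 was 0.57, 0.33 and 0.47 in WT and 0.22, 0.26 and 0.16 in AMPK KO. The SD of the difference was 0.158, against 0.233 for Noc2l and 0.265 for Samd11. Taf1d shares 77 bases with Cep295, and there the excess ranged from 2.48 to 3.98 with an SD of 0.564, larger than the SD of either gene. Cep295 overlapped between the groups (log2 fold change -0.33, adjusted p = 0.495). For Nop56, which shares 5 bases with Idh3b, a subunit of a mitochondrial dehydrogenase, the SD of the difference was 0.265, against 0.231 for Nop56 and 0.335 for Idh3b. Idh3b was itself higher in every AMPK KO sample (log2 fold change 0.50, SE 0.21, adjusted p = 0.177), and its part in the Nop56 values was not tested. In the other 5 pairs (Polr1e, Nhp2, Dkc1, Bop1 and Mybbp1a) the SD of the difference was 0.217 to 0.549.

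**Figure D4:**
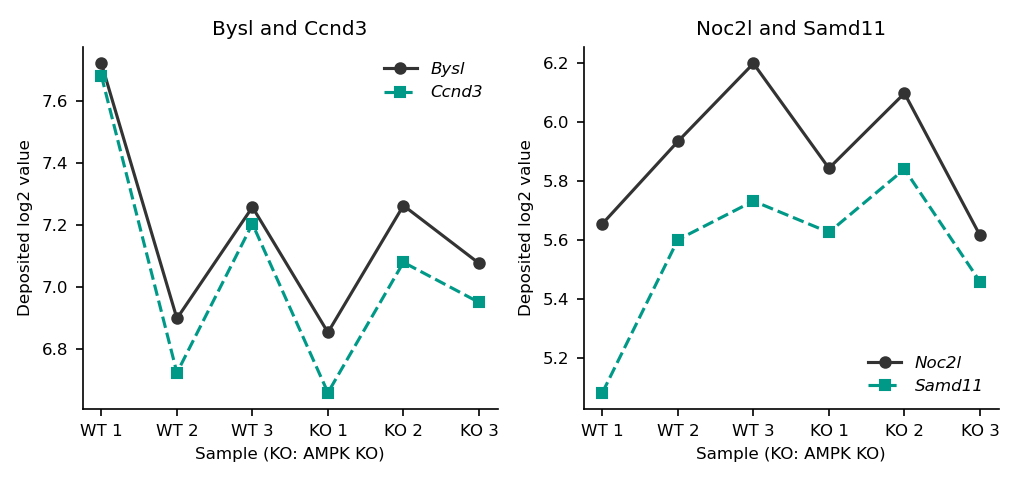
Deposited log2 value (vertical axis) of Bysl and Ccnd3 and of Noc2l and Samd11 in each library (horizontal axis), genes that meet at their 3' ends on opposite strands, with lines that only join the points of a gene. Bysl and Ccnd3 move in step, 0.04 to 0.19 apart in every library, and Noc2l and Samd11 are 0.16 to 0.57 apart.

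The snoRNAs encoded within these genes were thinly read. The files hold 12 snoRNA genes that lie inside 6 of the 40 genes, and 4 of the 12 were tested. Snora75, inside Ncl, read 2.20, 2.79 and 2.90 in WT and 1.51, 1.89 and 1.28 in AMPK KO, lower in every AMPK KO sample (log2 fold change -1.07, adjusted p = 0.135), on 17 to 59 reads. Snord92, inside Wdr43, had 32, 22 and 20 reads in WT and 21, 6 and 9 in AMPK KO (log2 fold change -0.87, adjusted p = 0.268). Snord57 in Nop56 (0.33) and Snord11 in Nop58 (0.01) overlapped between the groups, so no snoRNA of the 4 passed the test.

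Over all snoRNAs, 4 of 44 tested fell and none rose, with limma, where 3.1% of all genes tested were called lower and 2.54% higher. Snord89 read 8.09, 7.81 and 8.42 in WT and 5.49, 4.88 and 4.43 in AMPK KO. The groups lay far apart, by -3.18 on the log2 scale (SE 0.24, adjusted p = 1.8e-06), on 244 to 3025 reads. Snora81 read 8.27, 8.33 and 9.05 in WT and 6.95, 6.93 and 6.15 in AMPK KO (log2 fold change -1.88, SE 0.23, adjusted p = 0.000395), again with no overlap.

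Snora30 (-1.37, adjusted p = 0.0199) and Snord49b (-1.37, adjusted p = 0.0132) also fell, with calls lost without WT 1, without WT 3 or without AMPK KO 1 (adjusted p up to 0.129 and 0.0817). The median of the 44 was -0.11, against 0.02 for all genes. Like Rn45s, snoRNAs do not normally carry a poly(A) tail. A further 7 small non-coding RNAs were looked at after these values were seen, and none passed the test, at 0.05 adjusted or unadjusted. Their median was -0.28, with 5 of the 7 lower in AMPK KO (all 7 when scaled to reads outside Rn45s, median -0.34), among them Rmrp, the RNA of an rRNA-cleaving enzyme (-0.37), Rnu12 (-0.36) and Rpph1 (-0.01), while Rnu11 was at 0.07.

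Other genes of the pathway were given by lists. Of 12 further Pol I genes, shared subunits and promoter factors among them, none passed the test (median 0.16). None of 34 further 40S factors (median 0.01), 40 further 60S factors (median -0.11) and 8 snoRNP assembly factors (median 0.04) passed either. At an unadjusted p under 0.05 there were 1, 4, 7 and 1 in these lists with limma on the deposited values, and voom on the recovered reads called none. The mean of the 60S factors was lower in AMPK KO for 27 of 40 (18 of 40 with voom), with 11 that lay below all WT samples (14% of all genes tested) and 1 above (11.6%), and the median of -0.11 stood against 0.02 for all genes. Voom on the recovered reads moved both medians up alike, to 0.03 for the 60S factors and 0.16 for all genes.

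Of 15 genes of the RNA exosome and its partners, which trim rRNA precursors, Skiv2l2 alone passed the test. It encodes the helicase that feeds RNA to the nuclear exosome, and read 7.67, 7.34 and 7.65 in WT and 7.07, 7.05 and 6.87 in AMPK KO. Skiv2l2 fell with no overlap between groups (log2 fold change -0.55, SE 0.15, adjusted p = 0.0431). When single libraries were left out its adjusted p ranged from 0.0159 to 0.198, and only without WT 2 or without AMPK KO 2 did it stay under 0.05, and with voom it was 0.121.

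Of 9 tested genes of the Myc network, which drives ribosome genes, none passed the test (median -0.15). Myc read 3.71, 3.56 and 4.07 in WT and 3.12, 2.18 and 3.40 in AMPK KO. Each AMPK KO sample lay below each WT sample (log2 fold change -0.88, SE 0.36, adjusted p = 0.175). The subunits specific to Pol II (7, median -0.02) and to Pol III (10, median -0.15) held no gene past the threshold. At an unadjusted p under 0.05 these lists had 1, 0 and 2 genes, and voom called none.

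The cytosolic ribosomal proteins bind the processed rRNA in the finished subunits. Of 84 tested, 9 rose and none fell, with a median of 0.23 where the 39 biogenesis genes had 0.02. The mean was higher in AMPK KO for 72 of the 84, for 54 after quantile normalization (median 0.08), and for 66 of 85 when scaled to reads outside Rn45s (median 0.16, 5 called). With voom it was higher for 83 of the 84 (median 0.38, where all genes had 0.16), and 24 were called. The 9 of 84 stand against 2.54% of all genes tested called higher. Rplp1 had the largest rise, from 10.75, 10.91 and 10.63 in WT to 13.71, 14.36 and 13.69 in AMPK KO (log2 fold change 3.16, SE 0.20, adjusted p = 3.59e-07).

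Rps27a (0.81), Rps24 (0.79) and Rpl11 (0.77) followed, each with an adjusted p of 0.0143 to 0.0470 in limma and of 0.111 to 0.270 at most when single libraries were left out. Rps24 also lost its call in limma when scaled to reads outside Rn45s (adjusted p = 0.0769) and after quantile normalization (0.140), and kept it with voom (0.0311). With the replicate block in limma Rps27a, Rps24 and Rpl11 all lost their calls (adjusted p = 0.104 to 0.186). Ribosomal protein genes have many processed pseudogenes, among which reads may be divided. The difference between this list and the biogenesis genes was not tested.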

How the data were processed

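RNA from 3 WT and 3 AMPK KO samples of CD4 T cells (total RNA, Trizol) was made into QuantSeq 3' libraries, which prime on poly(A) tails. The authors deposited log2 values per gene symbol, log2 of the TMM and CPM normalized value plus 1. The submitters' processing notes name Bowtie2, bedtools and mm10, and the annotation and the use of strand are not given in the sources used here. Reads were recovered from the step of 1 read, since 100% of values up to 100 reads lay within 0.1 of a whole number.

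Genes with a mean log2 value of at least 1 were tested on the deposited values with limma 3.58.1 (lmFit, eBayes with trend, genotype only, two-sided) in R 4.3.3, with Benjamini-Hochberg adjustment over all 11279 genes and a threshold of 0.05. In data simulated from these samples the test found 189 of the 200 genes that had been changed (94.5%), and 17 others, out of 11460. The simulation gave every gene the same spread beyond counting noise. Its changes were larger than those of Polr1a and Taf1d, so 94.5% is not the share found among smaller changes. Fold changes are on the scale of log2 of the value plus 1. The genes, roles and lists were chosen with earlier results of these data known, and all 40 genes are named. From the other lists, at most the 4 largest of those past the threshold are named, with Myc, Cd4, Prkaa1, Xist, Ddx3y and the snoRNAs inside the 40 genes. Rpph1, Rmrp, Rnu11, Rnu12, Cep295, Idh3b, Ccnd3 and Samd11 were chosen after their values were seen. Positions are from GENCODE vM21 and promoters from RefSeq. Alternatives were other scalings, filters, pseudocounts, spread estimates, a replicate block, limma voom on the recovered reads and leaving out each library. Voom was scaled to all reads of a library, Rn45s included, without TMM factors, so it differs from the main test in scaling as well. Centring each library on its median was added after seeing the data. Plots used Python 3.11.15, numpy 2.4.6, pandas 2.3.3 and matplotlib 3.10.9.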

Additional observations from a re-analysis of the deposited data

How the results depend on the processing

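The count of genes past the threshold (637) was 308 with no filter on low values and 102 with a replicate block, and ranged from 127 to 1243 when single libraries were left out. The block and the omissions leave fewer residual degrees of freedom. Of the 40 genes, 2 were called, against 1 with no filter, 0 with the replicate block, 4 with voom on the recovered reads (Taf1d, Rn45s, Nop56 and Npm1) and 0 to 8 over the omissions. Voom, scaled to all reads with Rn45s included, moved the median of all genes from 0.02 to 0.16 and gave 379 genes higher and 152 lower. Nop56 and Npm1 both stood at 0.55 there (adjusted p = 0.0273 and 0.0210), above that shift. Rn45s passed the threshold at -1.40 when scaled outside Rn45s, at -1.33 with a robust spread or a pseudocount of 0.25 and at -1.18 with voom, and over the omissions it ranged from -1.40 to -1.23, with a call without AMPK KO 2 only. Quantile normalization gives Rn45s, the top gene of each library, an equal value by construction and was not used for it. Same-numbered samples did not deviate together (correlations of -0.08, -0.32 and -0.16). With 3 samples per group, whose deviations are tied to each other, these correlations cannot exclude that same-numbered samples were prepared together. Polr1a and Taf1d had adjusted p of 0.128 and 0.174 with the replicate block, and Taf1d of 0.102 with no filter. Over 15 alternatives (14 for Rn45s) 23 of the 40 genes kept the sign of their difference, and the other 17, none of them called, changed it in at least 1 alternative. Reads per library were as low as 69 for Gar1, 70 for Polr1e and 72 for Polr1b, which limits the precision of these genes.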
